A study of Mus musculus with 36 samples.

Results

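The 10 genes described here, none of them a collagen, are used to recognise fibroblasts and were followed through the chemical conversion of mouse fibroblasts towards photoreceptor-like cells and through native rods. They were chosen by symbol in the deposited table of normalized CPM (read counts put on a common scale by the authors): Pdgfra and Thy1 at the cell surface, the proteoglycans Dcn, Lum and Bgn, the glycoproteins Fn1, Postn and Sparc, the crosslinking enzyme Lox and the calcium-binding protein S100a4. All 10 symbols were found, 10 of 15289 genes, each with a value in 33 libraries. In fibroblasts before treatment every one of them was at 6.05 CPM or more in each library.

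All libraries carried the genotype Nrl-GFP, a reporter driven by the promoter of Nrl, a transcription factor of rods, and cells were collected by sorting on promoter reporter expression, per the labels. Mouse embryonic fibroblasts (MEF) were taken at passage 2, with 3 libraries. Chemically reprogrammed intermediates (RI) were collected from such cultures on day 5 (RI-d5, 3 libraries) and day 8 (RI-d8, 3 libraries). The labels give a treatment of 5 chemicals for 11 days in a medium for photoreceptor induction, and the reprogrammed cells of day 11, CiPC, have 3 libraries. Isolated rods came from postnatal day (P) 5 with 3 libraries, and from P2 (2 libraries), P4 (2), P6 (3), P10 (4), P14 (3) and P28 (4), which the labels list as reused from an older series, except that they name no older sample for replicate 3 of P10 and of P14. Rods of P3 were not analysed here. The labels do not say that replicates were separate cultures or animals, so the p-values measure only the spread between these libraries, which may be technical. Column sums ran from 719752 to 2277242, the counts behind the values are unknown, and so is the depth.

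Fibroblasts build and maintain the extracellular matrix of connective tissue. Fibronectin is laid down early and is bound by integrins, collagen fibrils are then spaced by small leucine-rich proteoglycans such as decorin, lumican and biglycan, and lysyl oxidase crosslinks them. Periostin and SPARC are matricellular proteins, which act on cell-matrix contacts rather than as scaffold, while PDGF receptor alpha and THY1 mark mesenchymal cells at the surface. S100A4, also called fibroblast-specific protein, is an intracellular calcium-binding protein and not part of the matrix. The neural retina has little fibrillar matrix, PDGF receptor alpha is there known from astrocytes, and THY1 from ganglion cells.

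The genes did not share one course. By day 5, 5 of the 10 were higher than in MEF and 4 were lower, and between day 8 and CiPC 8 were lower and none was higher. A gene was called where limma gave a Benjamini-Hochberg adjusted p under 0.05 over all genes tested and a log2 change of at least 1 on the log2(CPM + 1) scale, which shrinks changes of genes near 0 CPM. At day 5 against MEF, 13.6% of the 14798 genes tested were called higher and 12.6% lower. From day 5 to day 8 the shares were 3.24% and 2.71% (401 genes lower, and 754 with a pseudocount of 0.1), and from day 8 to CiPC 14.3% and 15.6%. The median log2 change of the 10 genes was 0.52 at the first step, -0.29 at the second and -5.21 at the last, beside 0.02, -0.01 and -0.03 over all genes tested.

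**Figure D1:**
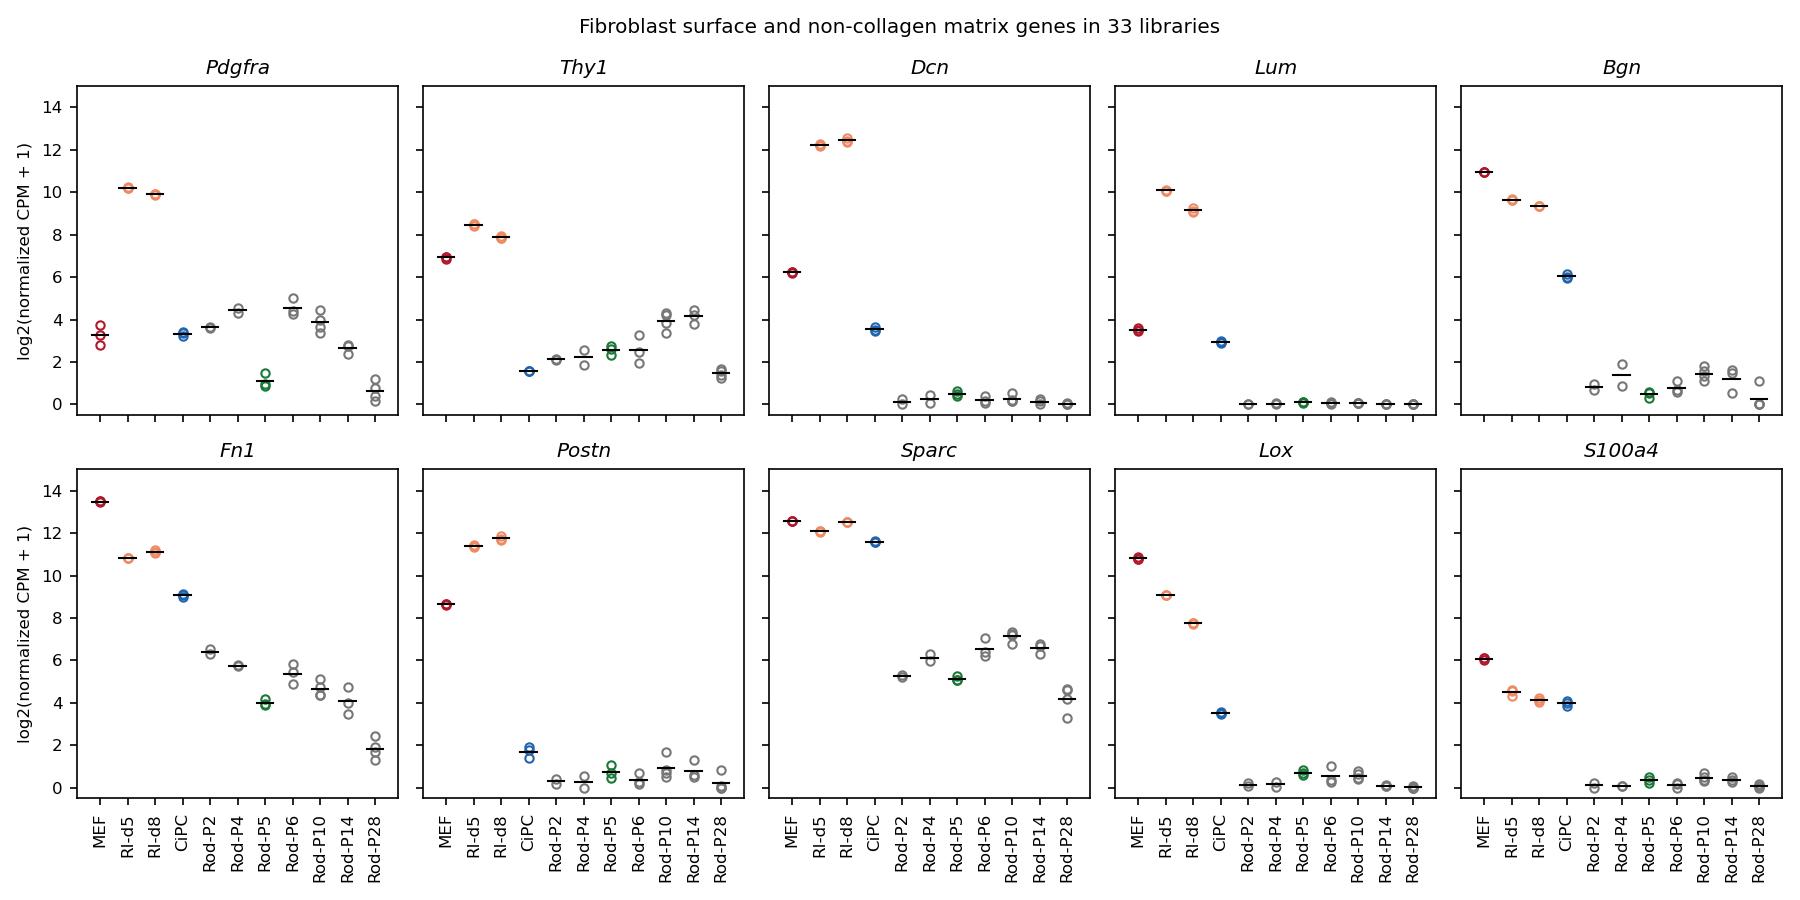
Normalized CPM of each of the 10 genes in each of the 33 libraries, by group, on a log2(CPM + 1) axis; points are libraries and short lines are means over a group's libraries on that scale. Pdgfra, Thy1, Dcn, Lum and Postn peak in the intermediates, and Bgn, Fn1, Lox and S100a4 are highest in MEF. Sparc stays at 3026 CPM or more in all 12 culture libraries.

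Promoter windows of 300 bases, 250 before to 50 after a start site, were matched by symbol in RefSeq (GRCm38.p6) for Pdgfra, Postn, S100a4, Bgn and Sparc, 5 of the 10 genes. Of these, 4 are printed, 5′ to 3′ on the strand of the gene: those of Pdgfra and Postn, which were higher at day 5, and those of S100a4 and Bgn, which were lower. They lie at chr5:75152001-75152300, chr3:54360857-54361156, chr3:90603520-90603819 and chrX:73483351-73483650, all on the plus strand. Capitals mark matches to motifs searched on both strands.
Pdgfra: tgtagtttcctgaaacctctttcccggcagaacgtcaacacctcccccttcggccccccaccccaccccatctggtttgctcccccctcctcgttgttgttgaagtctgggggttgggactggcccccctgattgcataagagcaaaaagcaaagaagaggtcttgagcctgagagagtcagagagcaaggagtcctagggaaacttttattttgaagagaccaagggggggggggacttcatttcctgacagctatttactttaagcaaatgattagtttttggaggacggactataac
Postn: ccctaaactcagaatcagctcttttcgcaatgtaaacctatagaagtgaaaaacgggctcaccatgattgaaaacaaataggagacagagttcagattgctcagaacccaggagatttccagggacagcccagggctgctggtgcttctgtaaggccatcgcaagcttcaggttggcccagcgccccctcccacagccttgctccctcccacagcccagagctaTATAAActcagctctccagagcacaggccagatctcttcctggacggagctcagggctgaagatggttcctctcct
S100a4: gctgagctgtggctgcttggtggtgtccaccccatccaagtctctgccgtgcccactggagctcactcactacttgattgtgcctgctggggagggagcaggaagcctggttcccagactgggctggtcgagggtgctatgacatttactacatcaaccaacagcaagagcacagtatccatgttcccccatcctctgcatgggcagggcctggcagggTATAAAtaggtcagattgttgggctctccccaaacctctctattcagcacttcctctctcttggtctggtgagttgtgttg
Bgn: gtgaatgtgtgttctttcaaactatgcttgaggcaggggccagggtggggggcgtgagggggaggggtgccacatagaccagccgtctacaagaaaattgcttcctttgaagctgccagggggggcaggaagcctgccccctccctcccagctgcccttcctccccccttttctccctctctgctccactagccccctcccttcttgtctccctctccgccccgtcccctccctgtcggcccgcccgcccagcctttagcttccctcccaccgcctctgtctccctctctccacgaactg
The motifs were TATAAA (the TATA box), TGANTCA (bound by AP-1), CATTCC (bound by TEAD factors), CAGACA (bound by SMAD factors) and CCAAT (bound by NF-Y), and no matches overlapped. TATAAA was found in the Postn window from position -26 and in the S100a4 window from position -31, counted from the start site. It was in 13.6% of the 32851 RefSeq windows searched. None of the 5 motifs was in the printed windows of Pdgfra and Bgn. Another Postn window, further upstream, held CCAAT on the reverse strand (37.4% of windows). The Sparc window, at chr11:55420031-55420330 on the minus strand, lies inside the annotated gene and not at its outer end. It held CAGACA on the reverse strand at -36 and 15 (21.0% of windows). TGANTCA, in 7.81% of windows, and CATTCC, in 14.7%, were in none of the windows of these genes. One window with TATAAA belongs to a gene that was higher at day 5 and the other to a gene that was lower.

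Pdgfra encodes the receptor tyrosine kinase for PDGF-A and other platelet-derived growth factors (GRCm38 chr5:75152292-75198215, plus strand). It stood at 6.05, 12.3 and 8.72 CPM in MEF, 1178, 1157 and 1203 at day 5 and 967, 976 and 947 at day 8. In CiPC it was back at 9.39, 8.32 and 9.68 CPM. The intermediates stood apart from all other libraries, and CiPC and MEF overlapped. Day 5 was 131-fold MEF by the ratio of means (log2 change 6.93 ± 0.17, limma adjusted p = 7.88e-15). From day 8 to CiPC the gene fell, with a log2 change of -6.58 ± 0.17 (adjusted p = 7.89e-15), and CiPC against MEF gave 0.06 ± 0.17, which did not pass (adjusted p = 0.758). The day 8 level was 81.7% of that at day 5 and did not pass the test (adjusted p = 0.188).

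Thy1 encodes a surface glycoprotein held by a lipid anchor (chr9:44043384-44048579, plus strand). Its values were 124, 116 and 123 CPM in MEF, 339.7, 360.0 and 361 at day 5 and 228, 231 and 246 at day 8. They were 2.02, 2 and 1.97 in CiPC. Unlike Pdgfra it began at 116 CPM or more, and in CiPC it stood below every MEF library. It rose at day 5 (log2 change 1.54 ± 0.081, limma adjusted p = 7.10e-11) and fell from day 8 to CiPC (-6.30 ± 0.081, adjusted p = 1.96e-18). CiPC was lower than MEF by the same test, with a log2 change of -5.35 ± 0.081 (adjusted p = 1.84e-17).

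Decorin, which binds collagen fibrils and growth factors, had the widest fold range in culture of the 3 proteoglycans. Dcn (chr10:97479609-97518143, plus strand) stood at 75.3, 74 and 72 CPM in MEF, at 4903, 4665 and 4743 on day 5 and at 5413, 6059 and 5242 on day 8. It was at 9.93, 10.4 and 11.6 CPM in CiPC, below every MEF library. The rise by day 5 was 64.7-fold (log2 change 6.00 ± 0.068, limma adjusted p = 1.05e-18), and the change from day 8 to CiPC was -8.90 ± 0.068 on the log2 scale (adjusted p = 2.50e-20). Against MEF, CiPC gave -2.68 ± 0.068 (adjusted p = 6.47e-15).

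Lum, for lumican, a keratan sulfate proteoglycan of cornea and connective tissue, lies 46984 bases from Dcn (chr10:97565128-97572703, plus strand). It stood at 11.2, 10.4 and 9.99 CPM in MEF, 1114, 1058 and 1073 at day 5, 559, 609.8 and 526 at day 8 and 6.44, 6.63 and 6.87 in CiPC. Each of these groups was apart from the next. Day 5 against MEF gave a log2 change of 6.55 ± 0.064 (limma adjusted p = 2.91e-19) and CiPC against day 8 gave -6.21 ± 0.064 (adjusted p = 1.67e-19). Dcn and Lum parted at day 8: Lum changed by -0.94 ± 0.064 from day 5, short of the fold needed for a call, while Dcn changed by 0.22 ± 0.068. CiPC against MEF was -0.59 ± 0.064, also short of that fold (adjusted p = 4.29e-07).

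Kera and Epyc, for the related proteoglycans keratocan and epiphycan, follow Lum on the same strand at chr10:97606879-97613692 and chr10:97644068-97682454. Kera had a mean of 0.0129 CPM in MEF, 150.3 ± 6.62 (SD, n = 3) at day 5 and 164 ± 11.6 (SD, n = 3) at day 8, and was listed at 0 in every CiPC library. Epyc had means of 0.466, 7.57, 13.4 and 0.068 CPM in the same order. Btg1, an antiproliferative gene, is the nearest annotated protein-coding gene on the other side of Dcn. It lies at chr10:96617006-96622809, further from Dcn than Epyc does, and had means of 87.7, 128, 127 and 57.1 CPM. All 4 neighbouring proteoglycan genes were thus highest in the intermediates by their means. Kera was at or near 0 in both MEF and CiPC, which gives no direction between them.

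**Figure D2:**
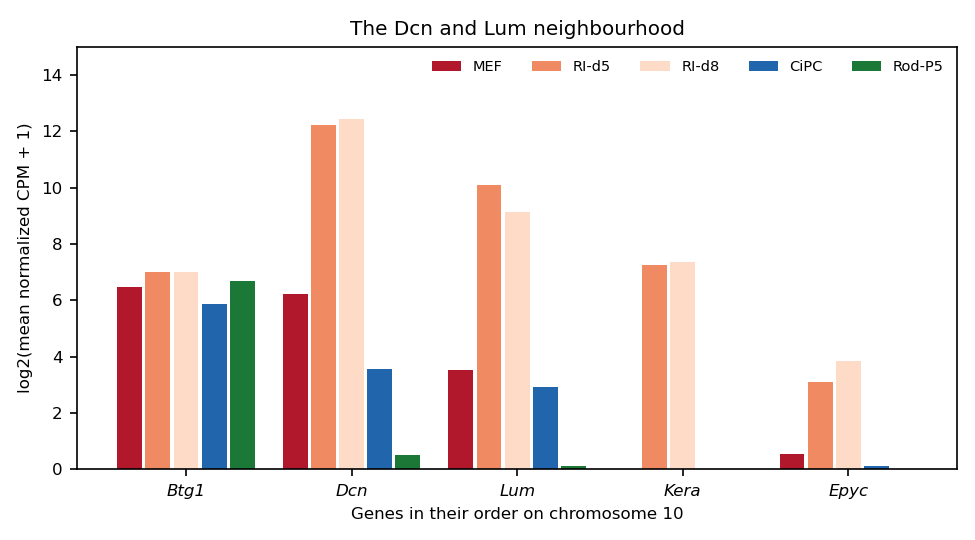
Group means of normalized CPM, on a log2(CPM + 1) axis, for Btg1, Dcn, Lum, Kera and Epyc in MEF, the intermediates, CiPC and P5 rods. Genes are in their order along the chromosome, with distances not to scale. The 4 proteoglycan genes are highest at day 5 or day 8, with Kera going from 0.0129 CPM in MEF to 164 at day 8, while Btg1 stays between 57.1 and 128 CPM.

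Biglycan, the close relative of decorin encoded on the X chromosome (chrX:73483602-73495933, plus strand), did the opposite at the first step. Bgn stood at 1977, 1975 and 1989 CPM in MEF, 791, 785 and 818 at day 5, 656, 657 and 648 at day 8 and 63.8, 60.2 and 69.3 in CiPC. The groups fell in that order with no overlap. Day 5 against MEF gave -1.31 ± 0.067 on the log2 scale (limma adjusted p = 5.74e-11), CiPC against day 8 -3.32 ± 0.067 (adjusted p = 2.96e-16), and CiPC against MEF -4.92 ± 0.067 (adjusted p = 6.36e-18). Its step from day 5 to day 8 was -0.29 ± 0.067 and was not called.

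Fibronectin, the glycoprotein that assembles into fibrils on integrins, fell at the first and at the last step. Fn1 (chr1:71585520-71653200, minus strand) stood at 11142, 11682 and 11535 CPM in MEF, 1794, 1799 and 1830.1 at day 5, 2191, 2133 and 2328 at day 8 and 543, 553 and 515 in CiPC. Its lowest group in culture was CiPC, yet it was still at 515 CPM or more there. By day 5 it fell (log2 change -2.66 ± 0.06, limma adjusted p = 2.32e-15) and again from day 8 to CiPC (-2.04 ± 0.06, adjusted p = 2.99e-14), to 21.3-fold less than MEF (-4.41 ± 0.06, adjusted p = 6.16e-18). Between days 5 and 8 it changed by 0.29 ± 0.06, which was not called.

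Periostin, a matricellular ligand of integrins, rose and then fell further than any other of the genes. Postn (chr3:54361109-54391037, plus strand) stood at 401, 399 and 393 CPM in MEF, 2731, 2611 and 2657 at day 5, 3385, 3711 and 3245 at day 8 and 1.6, 2.47 and 2.79 in CiPC. Day 5 was 6.7-fold MEF (log2 change 2.74 ± 0.13, limma adjusted p = 3.28e-11), and day 8 was 0.37 ± 0.13 above day 5, without a call. CiPC against day 8 gave -10.05 ± 0.13 (adjusted p = 3.22e-18) and CiPC against MEF -6.94 ± 0.13 (adjusted p = 3.33e-16).

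SPARC, a secreted calcium-binding glycoprotein that binds collagen, was not called at any step. Sparc (chr11:55394500-55423183, minus strand) stood at 6060.5, 6109 and 6155 CPM in MEF, 4285, 4369 and 4397 at day 5, 5798, 5948 and 5872 at day 8 and 3026, 3064 and 3192 in CiPC. The 4 groups did not overlap, but no step reached a log2 change of 1. The step from day 8 to CiPC was -0.92 ± 0.047 (limma adjusted p = 3.75e-11), and CiPC against MEF was -0.98 ± 0.047 (adjusted p = 1.94e-11), just short of a call; with median-of-ratios scaling it was -1.01 and without CiPC replicate 3 it was -1.0, and it was called. CiPC held 50.7% of the MEF mean, beside 4.69% for Fn1 and 0.575% for Postn. Sparc is also known from endothelium and glia. The summed markers of Müller glia and astrocytes were 2985 to 3062 CPM in MEF and 5385 to 5659 in CiPC, with 7 of 10 markers higher. Most of the MEF sum was Vim, with means of 2685 CPM in MEF and 2515 in CiPC. Those of endothelium were 162 to 167 CPM in MEF and 645 to 699 in CiPC, with 1 of 8 tested higher and 2 lower. The higher one was Kdr, at 25.6 and 625 CPM, which makes up most of the CiPC sum, and Cldn5 was listed at 0 in MEF. The part of either set of markers in the Sparc level was not tested.

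Lysyl oxidase, the copper enzyme that crosslinks collagen and elastin, fell at every step. Lox stood at 1897, 1778 and 1769.9 CPM in MEF, 545, 539 and 534 at day 5, 216, 215 and 211 at day 8 and 10.1, 10.6 and 10.9 in CiPC. No groups overlapped. It was the only one of the 10 genes called between days 5 and 8, with a log2 change of -1.33 ± 0.055 (limma adjusted p = 3.70e-11). The earlier step was -1.75 ± 0.055 (adjusted p = 1.29e-13) and the later one -4.22 ± 0.055 (adjusted p = 2.39e-18). CiPC against MEF gave -7.30 ± 0.055 (adjusted p = 1.92e-20), a ratio of means of 173.

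S100a4 (chr3:90603771-90606045, plus strand) fell at the first step, and neither later step was called. Its values were 68.8, 68.3 and 63.5 CPM in MEF, 22.8, 19.3 and 23.3 at day 5, 15.7, 17.8 and 16.8 at day 8 and 13.4, 15 and 15.9 in CiPC. Day 8 and CiPC overlapped. Day 5 against MEF was -1.58 ± 0.096 (limma adjusted p = 4.65e-10), CiPC against day 8 was -0.17 ± 0.096 (adjusted p = 0.114), and CiPC against MEF was -2.11 ± 0.096 (adjusted p = 9.40e-12). The annotation places other transcripts over S100a4 (Gm42674, same strand), Fn1 (Apol7d, antisense) and Pdgfra (Gm42802, antisense), and the strand used in counting is not given in the sources used here; whether these pairs share reads was not tested.

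**Figure D3:**
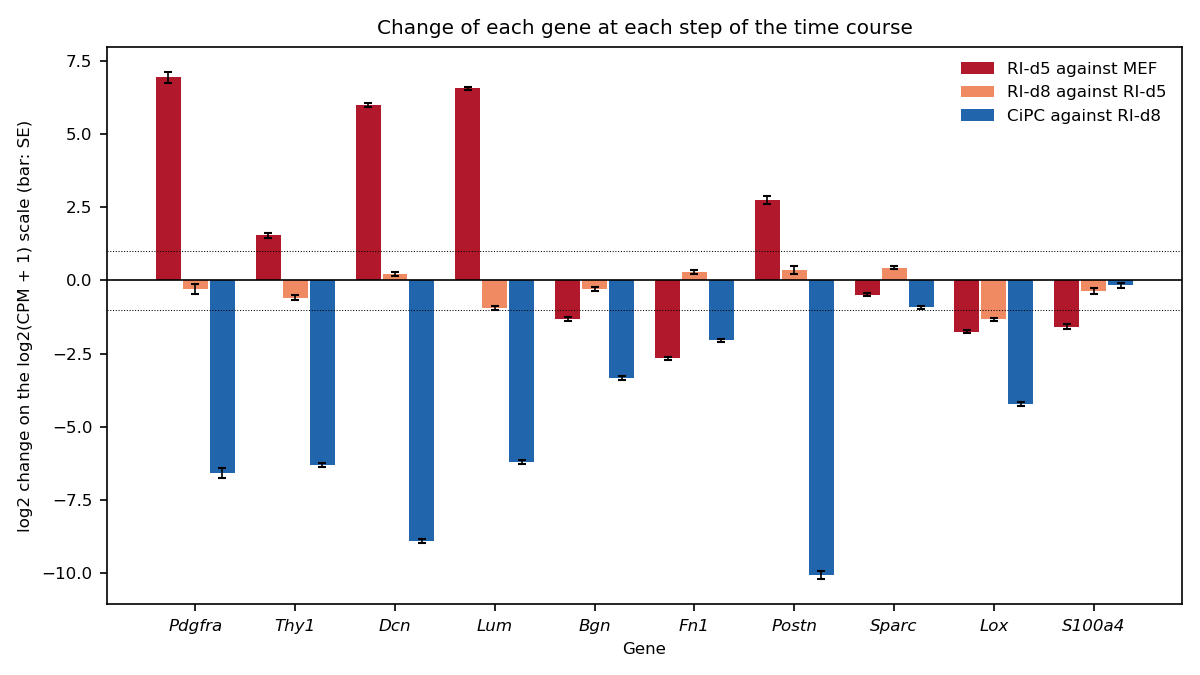
Log2 change of each gene, on the log2(CPM + 1) scale, with its standard error, at the 3 steps of the culture (day 5 against MEF, day 8 against day 5, CiPC against day 8); dotted lines mark the log2 change of 1 either way that a call needs. Pdgfra, Thy1, Dcn, Lum and Postn rise at the first step and fall by over 6 at the last. Bgn, Fn1, Lox and S100a4 fall at the first, and Sparc stays within 1 of 0 at each.

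At day 8 against MEF, 4 genes were higher and 4 were lower, where 15.2% of all genes tested were called higher and 14.3% lower. Pdgfra (6.64 ± 0.17), Dcn (6.22 ± 0.068), Lum (5.62 ± 0.064) and Postn (3.11 ± 0.13) were the higher ones by log2 change. Lox (-3.08 ± 0.055), Fn1 (-2.37 ± 0.06), S100a4 (-1.93 ± 0.096) and Bgn (-1.60 ± 0.067) were the lower ones. Thy1, at 0.95 ± 0.081, was short of the fold, and under quantile scaling its change was 1.12 and it was called. Sparc, at -0.06 ± 0.047, did not pass (limma adjusted p = 0.286). The median over the 10 genes was 0.45, beside 0.02 over all genes.

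At the end point 7 of the 10 genes were called lower than in MEF. In CiPC against MEF, 15.4% of all genes tested were called higher and 16% lower, and the median log2 change of the 10 genes was -3.55 beside -0.03 over all genes. Lox, Postn, Thy1, Bgn, Fn1, Dcn and S100a4 were lower. Pdgfra, Lum and Sparc were not called, though every CiPC library was below every MEF library for Lum and Sparc. The 10 genes together took 2.11% to 2.16% of the column sum in MEF, 1.82% to 1.86% at day 5, 1.91% to 2.04% at day 8 and 0.449% to 0.465% in CiPC. The joint share in the intermediates was thus a little below that of MEF, and that in CiPC was lowest of the 4. In bulk RNA, fewer cells of a type and less RNA per cell cannot be told apart.

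In the culture, markers of other cell types also differed between the groups. Summed markers of pericytes and smooth muscle were 11269 to 11538 CPM in MEF, 475 to 498 at day 5, 163 to 189 at day 8 and 2870.0 to 3066 in CiPC; 7 of 10 fell and 2 rose by day 5, and 3 rose and 3 fell from day 8 to CiPC. Most of the CiPC sum was Acta2 (2029 CPM) and Tagln (914), while Des fell at that step (-5.22 ± 0.086). Macrophage markers were 330.2 to 359 CPM in MEF and 13 to 16.7 at day 5, with 12 of 12 lower. Adipocyte markers went from 45.3 to 52.9 CPM to 1532 to 1559.9 at day 5 and 5441 to 5906 at day 8, with 7 of 8 higher at day 5, and were at 29.8 to 33.6 in CiPC; Adipoq and Cidec were listed at 0 in every MEF library. The adipocyte markers rose by day 5 and fell from day 8 to CiPC, as did Pdgfra, Thy1, Dcn, Lum and Postn. From day 5 to day 8 the courses parted. There 6 of 8 markers were called higher (median log2 change 2.86), and none of those genes was called. In CiPC against MEF the marker median was -0.09, with 1 of 8 lower, while Thy1, Dcn and Postn were called lower. The part of adipocyte-like cells in the changes of those genes was not tested. Rod markers were at 4.11 to 4.58 CPM in MEF, 329.8 to 355 in CiPC and 6369 to 6857 in P5 rods. Of the 10 housekeeping genes, 3 were lower at day 5 and none was called in CiPC against MEF. In P5 rods against MEF, 5 of them were lower and 1 higher, with a median log2 change of -0.98. In CiPC against P5 rods, 4 were higher and none lower, with a median of 0.71.

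Relatives of these genes changed in the same comparisons. Over all genes tested, 13.6% were called higher and 12.6% lower at day 5 against MEF. The shares were 14.3% and 15.6% from day 8 to CiPC, and 15.4% and 16% in CiPC against MEF. List counts near these shares, here and in the next paragraphs, do not set a list apart from other genes. Of 12 other small leucine-rich proteoglycans, 10 were tested, and at day 5 against MEF 6 rose and none fell, led by Kera (log2 change 7.22 ± 0.078), Fmod for fibromodulin (3.74 ± 0.10) and Epyc (2.55 ± 0.11). From day 8 to CiPC 8 of the 10 fell, among them Kera (-7.36 ± 0.078), Aspn for asporin (-6.47 ± 0.11) and Ogn for osteoglycin (-5.91 ± 0.10). Prelp, a proteoglycan of basement membranes and connective tissue, was the one that rose (4.22 ± 0.10), from 19.6 ± 2.1 CPM at day 8 to 381 ± 22 in CiPC (SD, n = 3). In P5 rods Prelp was at 10.2 ± 1.63 CPM (SD, n = 3).

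Among the PDGF receptors and ligands other than Pdgfra, 1 of 6 rose and 3 fell at day 5. Pdgfa (-3.95 ± 0.10) and Pdgfb (-3.93 ± 0.11), which encode ligands, fell while the receptor Pdgfra rose, and Pdgfrl, a receptor-like gene, rose (3.02 ± 0.096). From day 8 to CiPC, 3 rose and 2 fell: Pdgfb rose (6.77 ± 0.11), and Pdgfrl (-5.33 ± 0.096) and Pdgfrb, the beta receptor (-4.43 ± 0.085), fell. Of 11 other genes of the fibroblast surface, 10 were tested. Of these, 6 rose and 1 fell at day 5, and 7 fell and none rose from day 8 to CiPC. The ones that rose at day 5 included Mme, the peptidase CD10 (4.96 ± 0.09), Cd34 (3.66 ± 0.10) and Nt5e, the ecto-nucleotidase CD73 (3.09 ± 0.093), and the one that fell was the hyaluronan receptor Cd44 (-2.77 ± 0.066). Ly6a, which encodes the antigen SCA-1 (-7.90 ± 0.064), and Cd34 (-6.03 ± 0.10) were among the falls at the last step.

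Most partners of fibronectin that changed at day 5 fell, as Fn1 did. Of 14 such genes, 8 fell and 2 rose at day 5, with a fall of the integrin subunit Itgb1 (-2.92 ± 0.064) and of Fbln5, for fibulin 5 (-2.90 ± 0.07), and a rise of Fbln1, for fibulin 1 (5.08 ± 0.13), and Vtn, for vitronectin (1.79 ± 0.14). From day 8 to CiPC 7 fell and 3 rose: the syndecan gene Sdc4 (1.74 ± 0.056) and the integrin genes Itgav (1.55 ± 0.068) and Itgb1 (1.28 ± 0.064). In CiPC against MEF 10 fell and 1, Sdc4, rose (1.27 ± 0.056). The 8 relatives and partners of Lox in crosslinking gave 3 falls and 1 rise at day 5, with falls of the lysyl hydroxylase Plod2 (-2.57 ± 0.091) and the lysyl oxidase relative Loxl2 (-1.73 ± 0.054) and a rise of Plod1 (1.21 ± 0.089). In CiPC against MEF 5 of the 8 fell and none rose.

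The 15 other matricellular genes and relatives of SPARC gave 5 rises and 7 falls at day 5, and 5 rises and 8 falls from day 8 to CiPC. Ctgf, for connective tissue growth factor, fell at day 5 (-7.77 ± 0.066) and rose at the last step (5.54 ± 0.066), the reverse of Postn. Spp1, for osteopontin, fell at day 5 (-4.50 ± 0.12) and Spock2, a SPARC-related proteoglycan, rose (4.98 ± 0.13), as did Sparcl1 (3.68 ± 0.10), Thbs2 (3.42 ± 0.059), Smoc2 (3.18 ± 0.097) and Thbs3 (2.29 ± 0.14). Spock1, another SPARC-related proteoglycan, rose at the last step (6.12 ± 0.10), as did Tnc, for tenascin C (3.61 ± 0.10), Spp1 (2.33 ± 0.12) and Cyr61 (2.24 ± 0.09), while Thbs2, for thrombospondin 2 (-6.89 ± 0.059), and Smoc2 (-6.89 ± 0.097) fell. In CiPC against MEF 2 of the 15 rose, Spock1 (6.56 ± 0.10) and Spock2 (2.34 ± 0.13), and 11 fell.

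Of 10 other S100 genes, 8 were tested, and 4 fell and 1 rose at day 5; S100a6 (-2.53 ± 0.056), S100a11 (-2.07 ± 0.061) and S100a10 (-1.76 ± 0.063) fell as S100a4 did, and S100b, known from glia, rose (1.56 ± 0.11). Of 12 matrix proteases and their inhibitors, 6 rose and 3 fell at day 5: the collagenase gene Mmp13 (6.43 ± 0.078), the procollagen peptidase gene Adamts2 (5.82 ± 0.11) and the stromelysin gene Mmp3 (4.43 ± 0.068) rose, and the inhibitor genes Timp3 (-3.35 ± 0.055) and Timp1 (-2.85 ± 0.051) and the gelatinase gene Mmp9 (-1.30 ± 0.13) fell. From day 8 to CiPC 8 fell and none rose. The 18 basement membrane and other glycoprotein genes gave 4 rises and 3 falls at day 5, and 4 rises and 10 falls from day 8 to CiPC. The 3 falls at day 5 were those of Mfap5, a microfibril gene (-2.59 ± 0.16), Lama5, for a laminin chain (-2.40 ± 0.31), and Acan, for aggrecan (-2.15 ± 0.091). The 4 rises at the last step were those of the laminin genes Lama5 (4.16 ± 0.31), Lama1 (1.51 ± 0.095) and Lama2 (1.21 ± 0.087) and of Agrn, for agrin (1.03 ± 0.063).

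Native rods held little of most of these genes. In P5 rods against MEF all 10 were lower, where 23.3% of genes tested were called higher and 29.2% lower. The median log2 change of the 10 genes was -6.59, beside -0.08 over all genes, and that background was 0.07 under quantile scaling and -0.15 under median-of-ratios scaling. Dcn was at 0.535, 0.325 and 0.385 CPM in P5 rods and Lum at 0.0973, 0.0991 and 0.0331. Bgn was at 0.467, 0.219 and 0.502 CPM and Lox at 0.792, 0.54 and 0.611. Postn was at 0.381, 1.12 and 0.619 CPM and S100a4 at 0.179, 0.417 and 0.295. These 6 genes were near or below 1 CPM in every P5 library. Sparc stood at 32.3, 33.2 and 37 CPM and Fn1 at 17.1, 14.2 and 14.3. Thy1 was at 4.02, 5.7 and 5.02 CPM and Pdgfra at 1.77, 0.85 and 0.951. The 10 genes together took 0.00754% to 0.00796% of the column sum in P5 rods.

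Set against P5 rods, 8 of the 10 genes were called higher in CiPC. The shares of all genes called were 22.8% higher and 16.9% lower (3369 and 2501 genes), and under quantile scaling 2972 and 3450 genes. The median log2 change of the 10 genes was 2.94, beside 0 over all genes (-0.13 under quantile scaling). The differences were 6.46 ± 0.047 for Sparc (limma adjusted p = 5.75e-21), 5.55 ± 0.067 for Bgn (adjusted p = 7.99e-19) and 5.06 ± 0.06 for Fn1 (adjusted p = 6.27e-19). S100a4 (3.61 ± 0.096), Dcn (3.04 ± 0.068), Lum (2.83 ± 0.064), Lox (2.81 ± 0.055) and Pdgfra (2.23 ± 0.17) were also called higher. Thy1 was lower in CiPC than in each P5 library, with -0.97 ± 0.081, short of the fold, and it was called lower with a pseudocount of 0.1 (-1.25) or 0.5 (-1.11), under quantile scaling (-1.36) and without P5 replicate 1 (-1.08). Postn (0.95 ± 0.13) was short of the fold and was called higher with the smaller pseudocounts (1.64 and 1.23) and without CiPC replicate 1 (1.11) or P5 replicate 2 (1.12). This comparison and CiPC against MEF share the CiPC libraries.

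The Pdgfra part of these results depended on which rods were used. P5 rods came from the series of the culture and the other ages were reused, and Pdgfra was 22.6 and 18.8 CPM in P4 rods and 31.3, 20 and 18 in P6 rods, all above P5. Of the 5 genes tested, P5 was lower than the mean of P4 and P6 for Pdgfra (log2 change -3.39 ± 0.21, limma adjusted p = 3.59e-07), Fn1 (-1.56 ± 0.18, adjusted p = 2.53e-05) and Sparc (-1.21 ± 0.17, adjusted p = 1.34e-04), and Thy1 (0.17 ± 0.28) and Bgn (-0.62 ± 0.25) were not called. Among all genes tested 8.22% were called higher and 13.1% lower (1122 and 1788 genes; 1477 and 1564 under quantile scaling), with a median of -0.09 over all genes. With the mean of P4 and P6 in place of P5, an alternative chosen after seeing the data, Pdgfra was higher in rods than in MEF (1.22, limma adjusted p = 4.26e-06) and lower in CiPC than in rods (-1.15, adjusted p = 9.89e-06). For P5 rods, series and age cannot be told apart. Müller glia and astrocyte markers summed to 298 to 328 CPM in P5 rods, 989 to 1130.2 in P4 and 752 to 1219.6 in P6, with 7 of 9 tested lower in P5 and 1 higher; endothelial markers summed to 47.9 to 51, 255 to 308 and 157 to 260.4, with 2 of 5 tested lower and none higher and most of the sum from Kdr (means of 43, 271 and 180.0 CPM), and the part of either in the Pdgfra, Fn1 and Sparc differences was not tested.

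Over rod age only 6 of the 10 genes passed the filter of at least 1 CPM in 2 libraries; Dcn, Lum, Lox and S100a4 did not. Fn1 went from 91.9 and 77.9 CPM at P2, through 19.6, 26.1, 20 and 34.1 at P10, to 1.5, 4.43, 2.19 and 2.83 at P28. Every P28 library was below every younger one. Its change over the whole range of ages, fitted as a slope on log2 of the postnatal day, was -4.66 ± 0.43 (limma adjusted p = 1.09e-08), and P28 against P2 gave -4.58 ± 0.35 (adjusted p = 6.10e-09). The slope called 21.4% of all genes higher and 32.6% lower (2978 and 4520 genes; 3352 and 3259 under quantile scaling; 2788 lower without P28), and the P28 to P2 contrast 19.7% and 31% (2739 and 4305 genes; 3045 and 2989). The median over all genes was -0.31 for the slope, 0.04 under quantile scaling, and -0.29 for P28 against P2, 0.05 under quantile scaling.

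**Figure D4:**
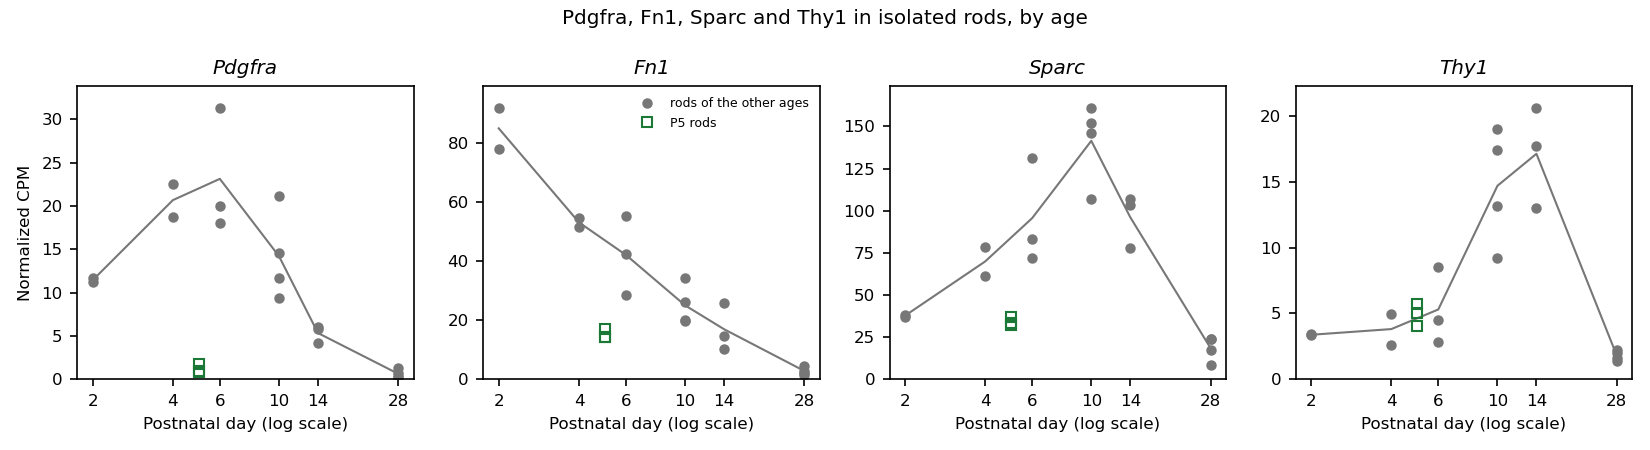
Normalized CPM of Pdgfra, Thy1, Fn1 and Sparc in rods against postnatal day (log axis); each filled point is a library of the reused ages, lines join their group means, and open squares are the P5 libraries. Fn1 declines from 91.9 CPM to 1.5 CPM, Pdgfra, Thy1 and Sparc are highest between P6 and P14, and the P5 libraries lie below their neighbours for Pdgfra, Fn1 and Sparc.

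Pdgfra, Thy1 and Sparc were highest at intermediate ages. Pdgfra stood at 11.6 and 11.2 CPM at P2, 9.32, 11.7, 14.6 and 21.1 at P10, 5.75, 5.98 and 4.22 at P14 and 0.136, 0.694, 0.313 and 1.3 at P28. It had a slope of -3.71 ± 0.68 (limma adjusted p = 7.12e-05) and fell from P2 to P28 (-3.0 ± 0.32, adjusted p = 3.11e-07); without the P28 libraries its slope was -0.99 and did not pass (adjusted p = 0.125). Thy1 was 3.41 and 3.32 CPM at P2, 2.63 and 4.98 at P4, 8.56, 4.5 and 2.83 at P6, 13.1, 19, 17.4 and 9.21 at P10, 17.7, 20.6 and 13 at P14 and 1.6, 2.2, 2 and 1.4 at P28. The P10 and P14 libraries were above all other rod libraries. Its slope of -0.10 ± 0.79 did not pass (adjusted p = 0.915), and without P28 it was 2.40 and did (adjusted p = 0.000141).

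Sparc followed a like course. It was at 36.8 and 38.3 CPM at P2, 61.3 and 78.4 at P4, 131, 83.3 and 71.9 at P6, 146, 152, 161 and 107 at P10, 107, 103 and 77.9 at P14 and 8.64, 23.9, 23.6 and 17.3 at P28. The slope of -1.24 ± 0.77 did not pass (limma adjusted p = 0.16), and without P28 it was 1.54 and did (adjusted p = 0.000751). P28 was lower than P2 (-1.09 ± 0.33, adjusted p = 0.00733), a call lost under quantile scaling (-0.76), under median-of-ratios scaling (-0.96) and without P28 replicate 1 (-0.78).

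Markers of other retinal cells moved both ways over the same ages. Over all genes tested, the slope called 21.4% higher and 32.6% lower, and marker counts near these shares do not set the markers apart. Those of Müller glia and astrocytes summed to 1100.4 to 1104 CPM at P2, 855 to 1180.0 at P10, 882 to 1005 at P14 and 233 to 489.9 at P28. Of 10 tested, 2 rose with age by the slope, Clu (4.25 ± 0.46) and Aqp4 (3.59 ± 0.90), and 5 fell, among them Vim (-5.09 ± 0.54) and Dkk3 (-3.98 ± 0.34). Endothelial markers summed to 275 to 324 CPM at P2, 117 to 132 at P10, 49.5 to 77.6 at P14 and 16.4 to 43.2 at P28. Most of that sum up to P14 was Kdr, with means of 282, 97.5, 41.6 and 6.43 CPM; of 7 tested 3 fell and 1, Pecam1, rose (2.40 ± 0.47). Ganglion and amacrine cell markers summed to 227 to 246 CPM at P2, 173 to 225 at P10, 154 to 205 at P14 and 31.9 to 48.5 at P28, and of 11 tested 5 fell and 1 rose by the slope. The fallers included Tfap2b (-4.96 ± 0.48) and Gad2 (-4.83 ± 0.30), known from amacrine cells, and the one that rose was the neurofilament gene Nefl (1.77 ± 0.54). Nefl had means of 13.1, 57.2, 84 and 32.7 CPM, and Sncg, a gene of ganglion cells, had 2.89, 7.13, 6.21 and 0.299. Both were higher by their means at P10 and P14 than at P2 and P28, as Thy1 was. Gad1, known from amacrine cells, was so too (12.3, 19.6, 20.1 and 2.10 CPM). Pou4f1, another of these markers, was not (4.16, 4.13, 3.52 and 0.510 CPM), nor were Tfap2b and Gad2. The part of these cell types in the rod values was not tested. Rod markers summed to 335381 CPM or more at P28.

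The remaining genes stayed low at every rod age. Dcn was at most 0.54 CPM and Lum at most 0.099 in any rod library, and Lum was listed at 0 in every library of P2, P14 and P28. S100a4 reached 0.60 CPM, Lox 1.05, Postn 2.24 and Bgn 2.79 in their highest rod library. Postn and Bgn were tested and their slopes of 0.11 ± 0.34 and -0.59 ± 0.42 did not pass (limma adjusted p = 0.783 and adjusted p = 0.212). In the order of the 11 group means, Fn1 and Sparc had 4 of 10 neighbouring pairs whose libraries overlapped, Pdgfra, Thy1 and Lox 5, Dcn, Lum, S100a4 and Bgn 6 and Postn 7. The pairs that overlapped were mostly among the rods. Such pairs were not counted over the other genes, so whether these numbers are unusual is not known.

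Across all 33 libraries the genes followed each other to different degrees, as a description with no test, since libraries of a group share their condition. Pearson's r of log2(CPM + 1) was 0.992 for Dcn with Lum and 0.980 for Lox with Bgn, and it was lowest for Pdgfra with S100a4, at 0.532. Bgn and S100a4 gave 0.977. Rod libraries enter each of these values; within the 12 culture libraries Dcn with Lum gave 0.976 and Lox with Bgn 0.992, while Pdgfra with S100a4 gave -0.419, Dcn with S100a4 -0.188 and Pdgfra with Fn1 -0.106. The genes of the whole table most like Dcn were Arsj (0.996), Col6a2 (0.995) and Ccl7 (0.995), and those most like Lum were Arsj (0.997), C1ra (0.992) and Fmod (0.992). For Bgn they were Foxc1 (0.994), Sdpr (0.993) and Arhgdib (0.991), and for Lox Procr (0.995), Wls (0.994) and Ggta1 (0.993). For S100a4 they were S100a6 (0.994), Cdkn2b (0.991) and Akap2 (0.991), the first another S100 gene of the list above. For Fn1 they were Fzd7 (0.991), Loxl2 (0.985) and Vat1 (0.984), for Sparc Sphk1 (0.987), Nid1 (0.984) and Anxa4 (0.980), and for Postn Srpx2 (0.997), Tmem45a (0.995) and Gdnf (0.994). For Thy1 they were Ednra (0.961), Olfml2a (0.950) and Fap (0.948), with Fap, a surface protease of activated fibroblasts, among the listed genes. For Pdgfra they were Ccdc71l (0.956), Fam13a (0.953) and Egfl6 (0.952).

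Within the 12 culture libraries, which leave out the low rod values, the closest genes were named in the same way. For Pdgfra they were Lpar1 (0.999), Agtr2 (0.999) and Cyp11a1 (0.999), for Thy1 Hoxa11 (0.999), Crabp2 (0.999) and Tbx18 (0.999), and for Dcn Mmp3 (0.999), Srpx (0.999) and Ifi211 (0.999). For Lum they were Prr16 (0.999), Ppl (0.998) and Igfbp5 (0.998), and for Postn Man2a1 (1.000) and Fap (0.999), of which Fap recurred. For Lox they were Ggta1 (0.999), Col11a1 (0.998) and Pappa (0.998), for Bgn Aga (0.998), Nid1 (0.998) and Wls (0.998), and for Fn1 Parm1 (0.998), Ptk2b (0.997) and Msln (0.997). For S100a4 they were Dusp9 (0.995), Timp3 (0.994) and Cct5 (0.993), and for Sparc Tgoln1 (0.992), Cd14 (0.990) and Tmed5 (0.989). Each r rests on 12 libraries in 4 groups, so that it mainly compares 4 group means.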

How the data were processed

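The submitters' processing notes name kallisto as the quantifier. Not given in the sources used here: version, index, genome build, strand and the scaling between libraries. The deposited table holds 1 signal value per gene in each library, which the authors' file calls normalized CPM. All 33 value columns were used, 0 were unused, and of 36 listed samples the 3 rods of P3 were not analysed here. The values are not whole, so no count model was fitted, and the depth per sample and its precision are not known.

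Values were taken as log2(CPM + 1). Genes with at least 1 CPM in at least 3 libraries of a fit (2 where the smallest group has 2) were tested with limma 3.58.1 in R 4.3.3, with a mean trend, over all such genes. MEF, the intermediates, CiPC and P5 rods shared a fit (14798 genes), as did the rods of the 6 other ages (13884), and P4, P5 and P6 rods (13652). Folds are ratios of mean CPM. The scripts were tested on simulated data. Coordinates are from GENCODE M21 (GRCm38), to which 15144 genes matched by identifier. Other pseudocounts, filters and scalings, the replicate block and each library left out were tried as alternatives.

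The 10 genes, the gene lists and the tests were chosen with earlier results of these data known. All 10 genes are named; genes of the lists are named from the 3 called genes with the largest change in a comparison and those called against the majority; markers of other cell types that make up most of a sum, or that moved with Thy1, were named after their values were seen; for each of the 10, the 3 genes with the highest Pearson r of log2(CPM + 1) are named, among genes with a group mean of at least 10 CPM and without numbered predicted genes; 1 gene that this names for Postn is not reported here. Btg1, as a neighbour of Dcn on the chromosome, falls outside this rule and was chosen after its values were seen. Pou4f1 also falls outside it, and Pou4f1, Tfap2a and Slc32a1 were named because they did not move with Thy1.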

Additional observations from a re-analysis of the deposited data

Results flagged for a closer look

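In groups of 4 libraries, 19 pairs of a gene and a group could be tested for a library that stands far from the others, and 5 did so. Chance flags about 1 in 20 groups of measured values, a rate that does not apply to 3 of the 5, where the other libraries are listed at 0 and any value above 0 stands apart. All 5 were in rods and at low levels. Dcn was at 0.454 CPM in 1 library of P10, with the other 3 between 0.115 and 0.164. At P28, Bgn was at 1.12 CPM in 1 library and listed at 0 in the other 3, and Postn was at 0.806 CPM in 1 library with the others between 0 and 0.069. Lox at 0.0702 CPM and Dcn at 0.0371 CPM were each above 0 in 1 library of P28 and listed at 0 in the other 3. The libraries come without counts, so how many reads these values stand for is unknown.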

How the results depend on the processing

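Of the values of single genes under other settings, 780 kept their side of the threshold, 10 gained a call and 3 lost one. Another 4 reversed direction with a call in either fit. Of those without 1 library, 595 kept their side, 4 gained a call and 1 lost one. Changes of direction between values that were both uncalled were not counted. The age slope of Thy1, for example, ran from -0.43 to 0.33 with a library left out. The reversals were Pdgfra with P4 and P6 rods in place of P5 (1.22 against MEF, and -1.15 for CiPC against rods), and the rod age slopes of Thy1 (2.40) and Sparc (1.54) without P28. With P4 and P6 rods, 1 of the 10 genes was higher in rods than in MEF, against 0 with P5. CiPC against P5 rods gave 1 gene lower, against 0, with pseudocounts of 0.1 or 0.5 or quantile scaling (Thy1) and with P4 and P6 rods (Pdgfra), and 0 to 1 with a library left out. The rod age slope without P28 gave 2 of the genes higher and 1 lower, and 2788 of all genes lower, against 4520. From day 5 to day 8, 754 genes were lower with a pseudocount of 0.1, against 401. Single calls also moved for Sparc in CiPC against MEF without CiPC replicate 3 (-1.0, called), for Postn in CiPC against P5 rods with P4 and P6 rods (1.38) or without CiPC replicate 1 (1.11) or P5 replicate 2 (1.12), and, with a pseudocount of 0.1, for Bgn in P28 against P2 (-2.24) and in P5 against P4 and P6 (-1.27). The causes were not tested. Among MEF, the intermediates, CiPC and P5 rods, 8 of 30 pairs of libraries with the same replicate number had deviations correlated at r over 0.1 (range -0.63 to 0.414), and among the rods 14 of 53 (range -0.585 to 0.684), so the numbers were not taken to pair samples. With the replicate number as a block, CiPC against day 8 gave 2115 genes higher and 2306 lower and P28 against P2 2974 and 4504, and no call on the 10 genes changed; the age slope had no such fit. Values near 0 CPM cannot be given a precision, because the depth is unknown.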
